A study of Homo sapiens with 10 samples.

Results

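The MYC network comprises 10 genes for basic helix-loop-helix leucine zipper transcription factors: *MYC*, *MYCN*, *MYCL*, *MAX*, *MXD1*, *MXD3*, *MXD4*, *MXI1*, *MNT* and *MGA*. They are 10 of 20046 protein-coding genes whose promoters were searched for peaks of the retinoblastoma protein Rb. A promoter ran from 2000 bp upstream to 500 bp downstream of any annotated transcript start of the gene, and the genes were chosen by name. Across 8 Rb libraries, 108 of 87112 peaks overlapped a promoter of the network, from 7 in 1 Kuramochi DMSO library to 19 in 1 Kuramochi INX-315 library.

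Rb was mapped by CUT&RUN, in which an antibody directs a nuclease to the protein on chromatin and the released DNA is sequenced. The cells were OVCAR3 and Kuramochi, established lines of high-grade serous ovarian cancer, both labelled wild type. Cultures were exposed to 300 nM INX-315, which inhibits CDK2, or to an equal volume of DMSO, the solvent, over 2 days. Rb was profiled in 2 biological replicates per line and treatment within 1 experiment, and 1 DMSO sample per line was profiled with IgG2a as the control antibody. Because each library averages over a population, more cells with Rb at a promoter and more Rb per cell cannot be told apart.

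MYC, MYCN and MYCL bind DNA as dimers with MAX, typically at the E-box CACGTG, and activate genes of growth and metabolism. MXD1, MXD3, MXD4, MXI1 and MNT compete for MAX and recruit SIN3 corepressors to the same element, and MGA joins MAX to the Polycomb complex PRC1.6. Rb restrains E2F factors at promoters until cyclin-dependent kinases phosphorylate it, and *MYC* and *MYCN* have long been described as genes with E2F elements in their promoters.

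DNA under the strongest network peaks is shown for *MYCN*, whose window held E2F strings, and *MXD4*, whose window held an E-box. Each sequence is the 200 bases around the summit of the peak with the highest fold enrichment, on the strand of the gene, in the reference genome hg38. Both windows lay outside the exons of their gene. Capitals mark the matched strings, and matches were sought on both strands.
*MYCN*, chr2:15940188-15940387, plus strand: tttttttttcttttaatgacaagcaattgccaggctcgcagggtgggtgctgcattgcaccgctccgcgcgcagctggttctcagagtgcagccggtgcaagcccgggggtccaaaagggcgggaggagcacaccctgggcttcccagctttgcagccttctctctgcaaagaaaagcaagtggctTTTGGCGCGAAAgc
*MXD4*, chr4:2262163-2262362, minus strand: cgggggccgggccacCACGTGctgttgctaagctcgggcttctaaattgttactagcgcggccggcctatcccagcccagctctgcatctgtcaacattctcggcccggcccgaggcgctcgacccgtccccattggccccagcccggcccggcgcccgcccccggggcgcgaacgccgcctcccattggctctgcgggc

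The E2F search used the strings TTTCCCGC, TTTCGCGC, TTTGCCGC and TTTGGCGC. *MYCN* held 2 matches that overlap each other, 1 on each strand, at −172 and −168 bp from its canonical start. *MGA* held 1 E2F match at +281 bp, and its window also held 2 matches to the cell cycle homology string TTTGAA. The E-box of *MXD4* lay at −236 bp. None of these strings occurred in the windows of the other 7 genes. Among 11855 distinct summit windows of protein-coding genes, 3.91% held an E2F string, 4.06% an E-box and 3.26% the TTTGAA string. In the network these were 2, 1 and 1 of 10 windows. RefSeq promoters of GRCh38.p14, 300 bases long, were matched for 9 of the 10 genes. There, E2F strings were found for *MYCN* alone (3.30% of 34935 promoters), E-boxes for *MXD4* and *MNT* (7.23%), and TTTGAA for *MYCN* (15.2%). GC content of the network windows ranged from 57.5% in *MYCN* to 80.5% in *MYCL*, beside a median of 70.0% over all windows. A match is a string of letters and says nothing about a bound factor, and the absence of one is limited to these windows.

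The libraries differed in their number of peaks and in depth. DMSO libraries held 5221 to 8794 peaks and INX-315 libraries 13031 to 17281, whereas the IgG2a libraries held 257 and 195. Mean coverage, the only measure of depth in the peak lists, was 0.380 to 0.501 fragments per base under DMSO and 0.216 to 0.421 under INX-315. No IgG2a peak lay at a network promoter. Only 25 of the 257 and 12 of the 195 IgG2a peaks lay on the main chromosomes, which hold all network genes, so this absence says little. The median peak summit was 21.9 to 26.3 times the mean coverage in the DMSO libraries and 34.6 to 46.3 times in the INX-315 libraries, so the values of single genes below are set beside those of all genes.

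Rb peaks were present at most network promoters in DMSO-treated cells, and *MYC* had the highest summits. A gene is called bound when both replicates of a group had a peak at its promoter. In OVCAR3, 7 of 10 network genes were bound under DMSO (26.7% of all genes) and 9 under INX-315 (55.3% of all genes). In Kuramochi, 6 were bound under DMSO (24.7% of all genes) and 9 under INX-315 (53.0%). *MYC*, *MYCN*, *MYCL*, *MXD3*, *MXD4* and *MXI1* had a peak in all 8 libraries, as did 18.8% of all genes. A gain required a peak in both INX-315 libraries and in neither DMSO library of a line. *MXD1* met this in OVCAR3 and *MAX* in Kuramochi, each 1 of 10 genes (16.1% and 13.9% of all genes), and no network gene was gained in both lines or lost in either. When each list was shortened to the length of the shortest list of its line, 6162 peaks in OVCAR3 and 5221 in Kuramochi, no network gene was gained. In OVCAR3, 7 genes were then bound with DMSO and 6 with INX-315 (24.7% and 28.9% of all genes). In Kuramochi these counts were 6 and 4 (21.7% and 24.9% of all genes). Gains over all genes were 2.32% in OVCAR3 and 2.02% in Kuramochi on that scale.

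**Figure D1:**
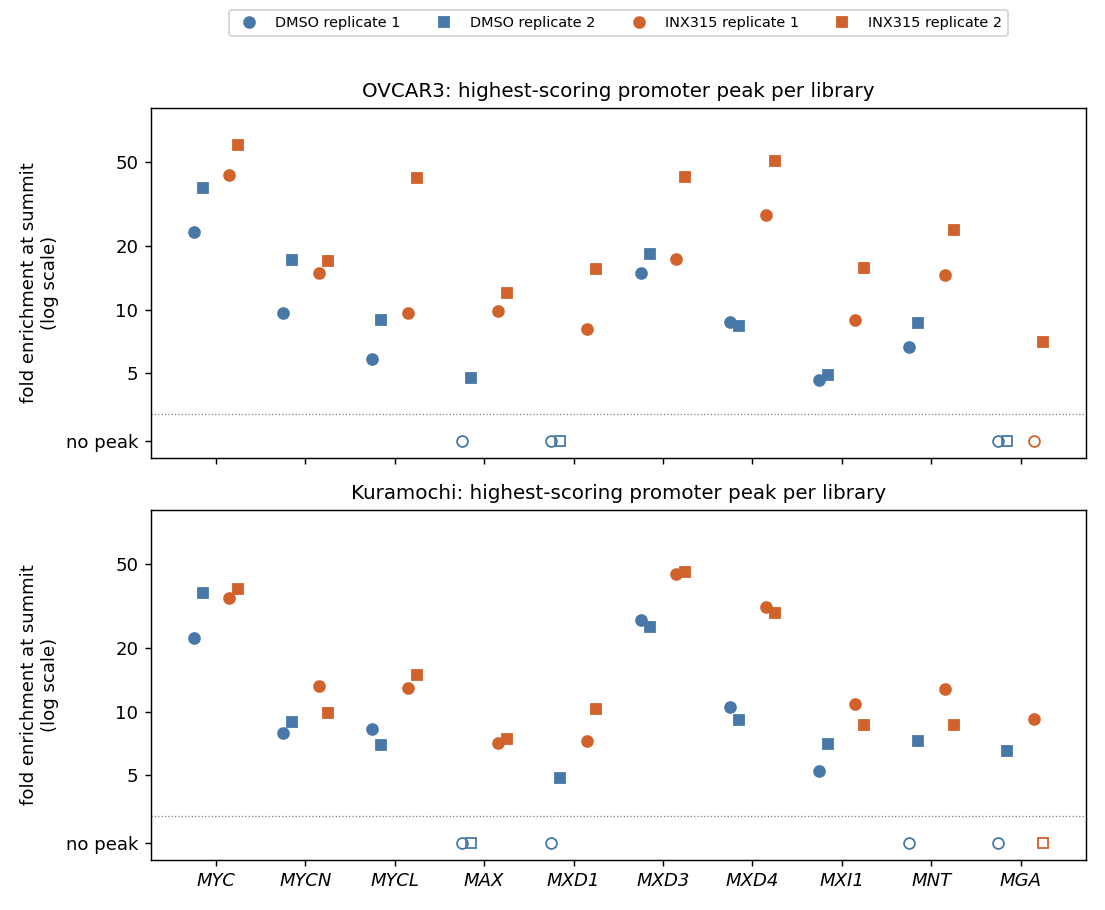
Fold enrichment at the summit (log axis) of the strongest promoter peak of each network gene, with OVCAR3 above and Kuramochi below; blue is DMSO, orange INX-315, circles replicate 1, squares replicate 2, and open symbols mark libraries with no peak. *MYC* reached 22.4 to 59.8 in every library, while *MAX*, *MXD1* and *MGA* lacked peaks in 3, 3 and 5 libraries.

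Fold enrichment is the caller's ratio of fragments at the summit to local background. It is given for the promoter peak with the smallest p-value in each library. The paralogues that drive transcription are described first, then MAX, then the repressors.

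*MYC*, on chromosome 8, encodes the widely expressed growth regulator of the family. In OVCAR3 its fold enrichment was 23.4 and 37.8 with DMSO against 43.1 and 59.8 with INX-315. Kuramochi libraries gave 22.4 and 36.6 (DMSO) and 34.6 and 38.2 (INX-315). The OVCAR3 values were separate between treatments and those of Kuramochi overlapped. The peak stood in the top 2.49% of its list in every library, and in the top 0.125% in 1 Kuramochi DMSO library. Its summit lay 137 to 251 bp upstream of the canonical start, within exons of alternative transcripts. By fold enrichment *MYC* was the highest network gene in 5 of 8 libraries, and *MXD3* in the other 3.

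Around *MYC* the signal was not confined to the start. In 7 libraries 1 or 2 further peaks lay downstream, the main one 1488 to 1836 bp from the start. In OVCAR3 INX-315 replicate 2 a single peak of 4094 bp covered both sites. A site 1963 to 2190 bp upstream was called in 3 of 4 INX-315 libraries with fold enrichments of 7.59 to 8.53 and in no DMSO library. These peaks ranked 10361 by p-value in the OVCAR3 library, and 7719 and 6360 in the Kuramochi libraries. All lay beyond the 6162 (OVCAR3) and 5221 (Kuramochi) peaks of the shortened lists, and the longer INX-315 lists reach weaker peaks. All 8 main peaks also overlapped a promoter of *CASC11*, a long non-coding RNA on the opposite strand, and CUT&RUN cannot assign a shared peak to one of them.

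**Figure D2:**
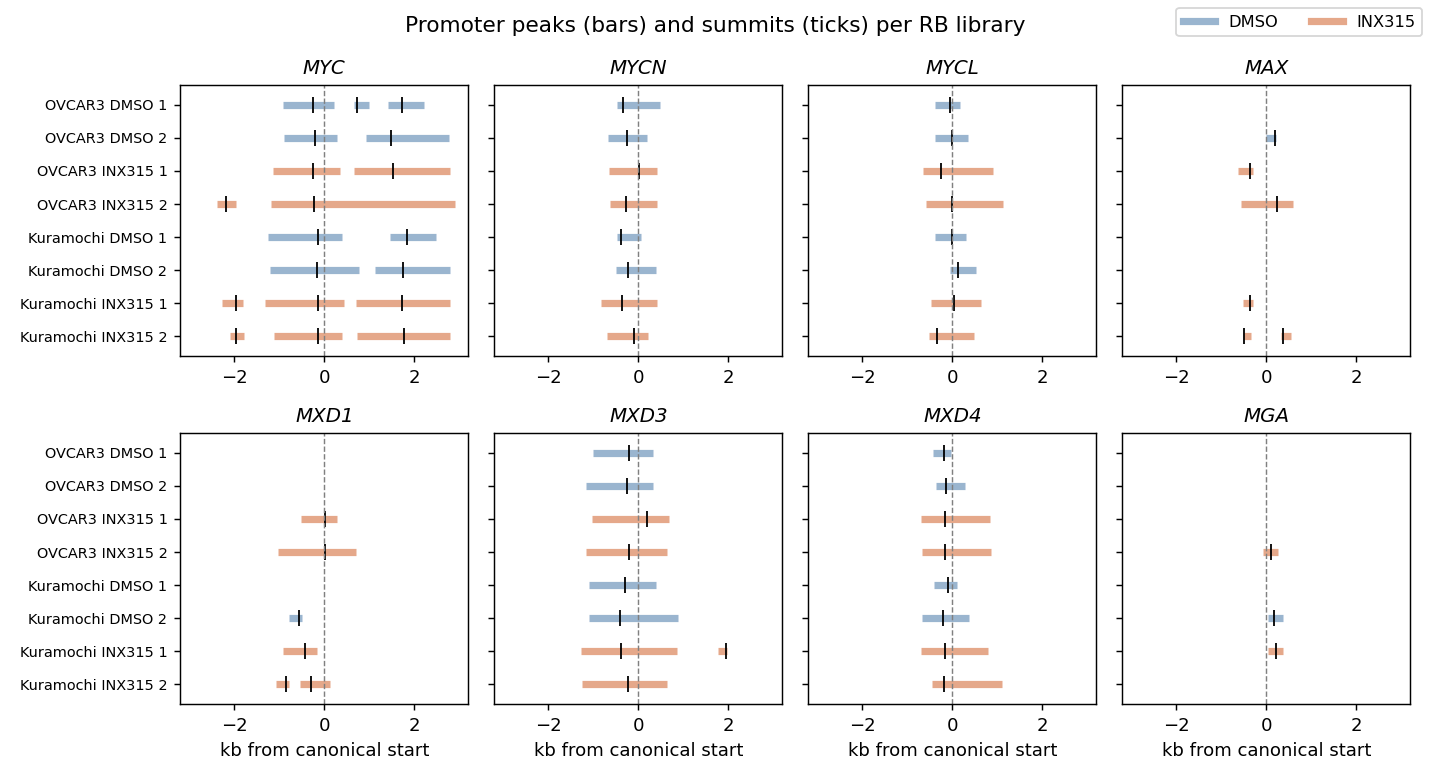
Promoter peaks as bars and their summits as ticks, in kb from the canonical start along the direction of transcription, for the 8 network genes whose strongest peaks lay near that start; rows are libraries, blue DMSO and orange INX-315. *MYC* showed additional peaks 1488 to 1836 bp downstream, and those of *MXD4* widened from 398 to 1054 bp under DMSO to 1501 to 1554 bp under INX-315. The median width of all peaks also rose, from 482 to 559 bp in DMSO libraries to 619 to 775 bp in INX-315 libraries.

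The 2 lines differed in the background around *MYC*. The local background that the caller used there was 1.43 to 1.44 times the mean coverage in the OVCAR3 libraries, close to the median gene at 1.35 to 1.43. In Kuramochi it was 7.66 to 9.38 times the mean, a level reached by only 0.152% to 0.305% of genes with a promoter peak. The caller reads this background from the IgG2a library of the line, of which there was 1 per line. All Rb libraries of a line therefore share that control, and their similar values are not independent observations. Summit height, the fragments at the summit divided by mean coverage, was 78.8 and 128 with DMSO against 199 and 226 with INX-315 in OVCAR3. Values in Kuramochi were 258 and 374 with DMSO against 385 and 505 with INX-315. By height *MYC* was the highest network gene in all 8 libraries, and each Kuramochi value exceeded each OVCAR3 value. Fold enrichment, which divides by the local background after 1 is added to fragments and background, overlapped between the lines. In fragments, that background was 0.437 to 0.721 in OVCAR3 and 1.88 to 4.17 in Kuramochi. The added 1 thus weighs more in OVCAR3, and the overlap need not hold for a plain ratio of fragments to background. The part of the background in the difference in height between lines was not tested.

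**Figure D3:**
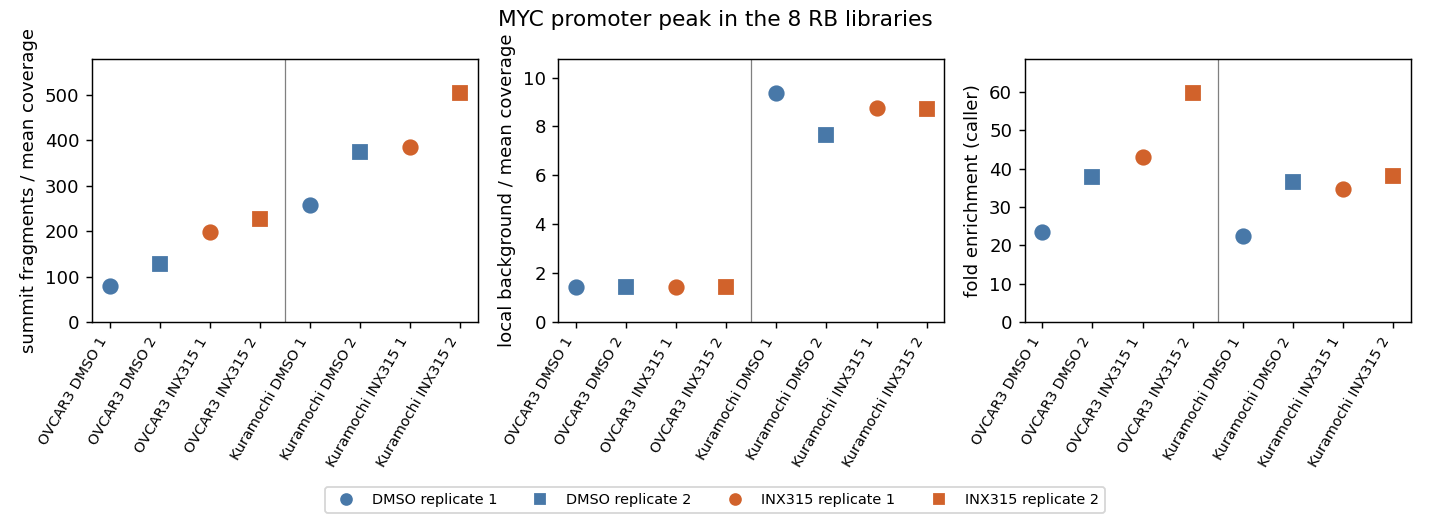
*MYC* promoter peak in each Rb library as summit height in multiples of mean coverage (left), local background in multiples of mean coverage (centre) and fold enrichment (right); blue is DMSO and orange INX-315. The background, read from 1 IgG2a library per line, was 1.43 to 1.44 in OVCAR3 and 7.66 to 9.38 in Kuramochi. Fold enrichment, with 1 added to fragments and background, ranged from 22.4 to 59.8 with overlap between lines.

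*MYCN*, the paralogue known for its amplification in neuroblastoma, had 1 promoter peak in every library. Its fold enrichment in OVCAR3 was 9.69 and 17.2 with DMSO against 14.9 and 17.0 with INX-315. The Kuramochi values were 7.94 and 8.98 with DMSO against 13.3 and 9.92 with INX-315. The treatments overlapped in OVCAR3 and were separate in Kuramochi. Summits spread from 376 bp upstream to 10 bp downstream of the start (chr2:15940550). The peak with the highest enrichment, in OVCAR3 DMSO replicate 2, covered the paired E2F strings printed above, as did every other *MYCN* peak. In 6 libraries the peak was shared with the antisense gene *MYCNOS*.

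*MYCL*, the paralogue first found in lung cancer, was weaker under DMSO. Its fold enrichment in OVCAR3 was 5.84 and 8.94 with DMSO against 9.65 and 42.1 with INX-315. Kuramochi libraries gave 8.32 and 6.99 (DMSO) and 12.9 and 15.0 (INX-315). Both lines were separate by treatment, but OVCAR3 INX-315 replicate 2 stood far above replicate 1. The local background at the *MYCL* peak in replicate 1 was 6.21 times the mean, against 1.58 in replicate 2, and the summit heights were 88.1 and 164. Both backgrounds came from the same IgG2a library, read at different summits (chr1:39902163 and chr1:39901916). Peaks spanned 561 to 744 bp under DMSO and 1004 to 1710 bp under INX-315, all within 334 bp of the start at the summit. The median width of all peaks was 482 to 559 bp in DMSO libraries and 619 to 775 bp in INX-315 libraries.

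*MAX*, the shared partner of the whole network, had a peak in only 1 of 4 DMSO libraries. That peak, in OVCAR3 replicate 2, had a fold enrichment of 4.74 and rested on 7 fragments. All 4 INX-315 libraries had a peak, with fold enrichments of 9.91 and 12.0 in OVCAR3 and 7.12 and 7.40 in Kuramochi. Those summits rested on 8 to 18 fragments and lay from 488 bp upstream to 228 bp downstream of the start.

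*MXD3* encodes a repressor that is expressed in proliferating cells, unlike other *MXD* genes that mark differentiation. Its fold enrichment in OVCAR3 was 14.9 and 18.3 with DMSO against 17.4 and 42.4 with INX-315. Values in Kuramochi were 27.1 and 25.2 with DMSO against 44.5 and 46.0 with INX-315. The treatments overlapped in OVCAR3 and were separate in Kuramochi. Summits in 7 libraries lay 202 to 406 bp upstream of the canonical start, within an intron of longer transcripts.

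*MXD4*, another MAX-dimerising repressor, had the clearest separation by treatment. Its fold enrichment in OVCAR3 was 8.77 and 8.35 with DMSO against 28.2 and 50.4 with INX-315. The Kuramochi values were 10.5 and 9.18 with DMSO against 31.2 and 29.2 with INX-315. The lowest INX-315 value was therefore more than the highest DMSO value in each line, and replicates within the DMSO groups differed little. Summits stayed within 96 to 203 bp upstream of the start in all 8 libraries, and all 8 lay inside the window printed above, which holds the E-box.

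*MXD1*, an antagonist induced in differentiating cells, had no peak in OVCAR3 under DMSO and fold enrichments of 8.12 and 15.6 under INX-315. In Kuramochi 1 DMSO library had a peak of 4.87, and the INX-315 libraries had 7.31 and 10.3. The OVCAR3 summits lay 22 and 23 bp downstream of the canonical start, and the Kuramochi summits 291 to 560 bp upstream, within an intron of longer transcripts.

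*MXI1*, a repressor with many annotated transcripts, was marked at internal starts more than at its first. The strongest peak per library lay either 2984 to 3140 bp or 18240 to 18547 bp downstream of the canonical start. The farther region carried a peak in all 8 libraries and the nearer one in 6. In OVCAR3 the strongest values were 4.65 and 4.91 with DMSO against 8.91 and 15.7 with INX-315. They were 5.26 and 7.06 against 10.9 and 8.67 in Kuramochi. Treatments were separate in both lines. At the canonical start, peaks appeared in the 2 OVCAR3 INX-315 libraries alone, at 3.97 and 7.87.

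*MNT*, the most widely expressed MAX-binding repressor, also had its strongest peak inside the gene, 7304 to 8112 bp downstream of the canonical start, where shorter transcripts begin. This peak was found in 7 libraries. It measured 6.69 and 8.66 with DMSO against 14.5 and 23.9 with INX-315 in OVCAR3. In Kuramochi it was absent from DMSO replicate 1, 7.25 in DMSO replicate 2, and 12.8 and 8.67 under INX-315. A second region, covering the canonical start, had promoter peaks in 6 libraries. OVCAR3 values there were 5.35 and 5.93 with DMSO against 10.7 and 8.70 with INX-315. Kuramochi had 6.41 and 5.76 under INX-315 and no promoter peak under DMSO. Its DMSO replicate 2 had an intron peak of 5.07 outside the promoter windows, 1953 bp downstream of the start.

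*MGA* was the least marked gene of the network. Peaks near its canonical start were called in 3 libraries, OVCAR3 INX-315 replicate 2 at 7.01, Kuramochi DMSO replicate 2 at 6.52 and Kuramochi INX-315 replicate 1 at 9.25. No group had a peak in both of its libraries. A further peak lay 38799 bp upstream, at another start of the gene, in Kuramochi INX-315 replicate 1.

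Whether the treatments differed beyond replicates was first described by separation. Among genes with a peak in all 4 libraries of OVCAR3, both INX-315 fold enrichments exceeded both DMSO values for 5 of 7 network genes, the exceptions being *MYCN* and *MXD3* (94.8% of 5333 genes). In Kuramochi this held for 5 of 6, the exception being *MYC* (90.2% of 4952 genes). Median ratios of INX-315 to DMSO means were 2.51 for the network and 2.80 for all genes in OVCAR3, and 1.66 and 2.17 in Kuramochi.

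Summit heights on the log2 scale were then tested with limma across all genes that had a peak, with recovered fragments, in every library. Of 3489 genes, 3479 were higher under INX-315 in the mean of both lines (99.7%) and 0 were lower, also at an unadjusted p below 0.05 in limma, with a median log2 difference of 1.64. With this background, a call of higher says little about a single gene, and a shift of whole libraries enters every gene. The SE and p-values rest on a spread that limma shared largely over genes of similar height. A small p-value therefore does not show that the replicates of that gene were close. All 6 network genes tested were higher. *MXD4* differed by 2.20 (SE 0.31, limma adjusted p = 1.73e-11), more than 94.8% of genes. *MYCL* differed by 1.76 (SE 0.30, limma adjusted p = 2.03e-08) and *MXI1* by 1.47 (SE 0.30, limma adjusted p = 1.54e-06), both near the median. The other 3 genes stood near the low end of the distribution.

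*MXD3* differed by 0.97 (SE 0.29, limma adjusted p = 0.000838), and 4.41% of genes had a smaller difference. *MYC* differed by 0.79 (SE 0.26, limma adjusted p = 0.00212), with 1.52% of genes below it. *MYCN* differed by 0.60 (SE 0.30, limma adjusted p = 0.0467), with 0.373% below it. As folds, these were 1.96, 1.73 and 1.52, beside a median of 3.11 over all genes. The call for *MYC* was lost without OVCAR3 DMSO replicate 1 (0.62, limma adjusted p = 0.0583), and that for *MYCN* in 6 of 8 such omissions, with limma adjusted p up to 0.184. With the caller's fold enrichment in place of height, *MYC* (0.56, limma adjusted p = 0.0882) and *MYCN* (0.37, limma adjusted p = 0.284) were not called.

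Relative to their own libraries, *MYC*, *MYCN* and *MXD3* fell. When the median height of all genes was subtracted from each library, limma called 366 genes lower (10.5%) and 200 higher (5.73%). The differences were −0.88 for *MYC* (limma adjusted p = 1.02e-06), −1.07 for *MYCN* (limma adjusted p = 0.000232) and −0.70 for *MXD3* (limma adjusted p = 0.000336). *MXD4* was higher by 0.53 (limma adjusted p = 0.0448). *MYCL* (0.088) and *MXI1* (−0.20) were not called. Within lines, centred heights called 1 network gene lower in OVCAR3 (2.84% of all genes), *MYCN* at −1.51 (limma adjusted p = 0.0135). In Kuramochi they called 2 (3.91% of all genes), *MYC* at −1.03 (limma adjusted p = 1.55e-09) and *MXD3* at −0.67 (limma adjusted p = 0.00334). The lists carry no spike-in scaling, so which of these scales describes the amount of Rb on DNA cannot be told apart. Under DMSO, the mean log2 height was higher than in 99.9% of the tested genes for *MYC*, 97.8% for *MXD3* and 67.4% for *MYCN*. Across genes, the difference and the DMSO height had a Pearson correlation of −0.30, a description that shares the DMSO values on both axes.

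**Figure D4:**
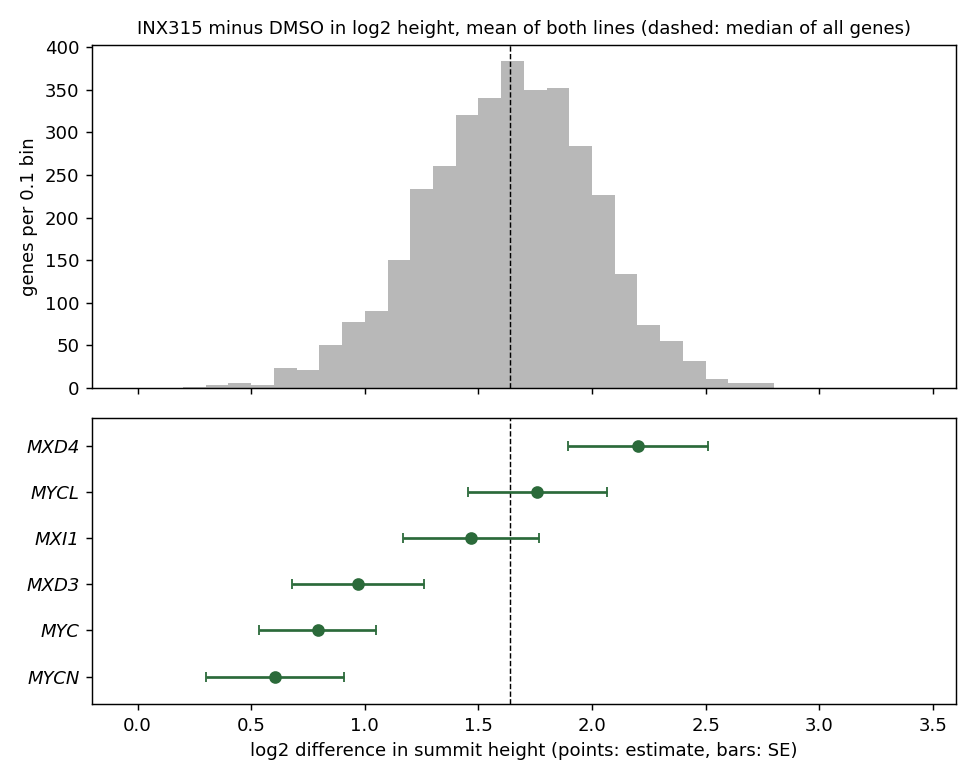
Distribution of the log2 difference in summit height (INX-315 minus DMSO, mean of both lines) over 3489 genes, as genes per bin of 0.1 (top), and the 6 network genes with a peak in all 8 libraries, as estimates with SE (bottom); the dashed line is the median of all genes, 1.64. *MXD4* lay above the median at 2.20, and *MXD3*, *MYC* and *MYCN* below it at 0.97, 0.79 and 0.60; centring each library turned *MYC*, *MYCN*, *MXD3* and *MXI1* negative.

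Within lines, 6 of 7 network genes were called higher in OVCAR3 (96.7% of 5173 genes) and 4 of 6 in Kuramochi (91.9% of 4788 genes). In OVCAR3 the gene not called was *MYCN*, with a log2 difference of 0.37 (SE 0.46, limma adjusted p = 0.425). *MNT*, tested in this line alone, differed by 1.70 (SE 0.46, limma adjusted p = 0.000407). In Kuramochi the genes not called were *MYC*, at 0.50 (SE 0.49, limma adjusted p = 0.304), and *MXD3*, at 0.86 (SE 0.47, limma adjusted p = 0.0741). *MYC* differed by 1.08 in OVCAR3 (SE 0.38, limma adjusted p = 0.00573). The difference between the lines was not called for any of the 6 genes (limma adjusted p = 0.998 each) or for any of the 3489 genes, of which 98 had an unadjusted p below 0.05. The count in OVCAR3 was 3 without DMSO replicate 1, and that in Kuramochi was 2 without INX-315 replicate 1 and 0 without INX-315 replicate 2, the shallowest library.

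The pattern of *MYC* heights over the 8 libraries was compared with that of 3488 other genes, as a description. The most similar were *LTBP4* (r = 0.982), *DGKH* (r = 0.982) and *PFN1* (r = 0.978). Within the network, *MXD3* was close (r = 0.943), and *MYCL*, *MXD4* and *MXI1* were less so (r = 0.463, 0.438 and 0.356). *MYCN* had r = −0.261 over all 8 libraries, but within each line its heights rose in the same library order as those of *MYC*. In each treatment, all Kuramochi heights of *MYC* and *MXD3* exceeded those of OVCAR3, and all those of *MYCN* lay below. These correlations share libraries and their depth.

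Genes that work with the network were read in the same way, beside the share of all genes bound. In the MLX arm, a parallel set of MYC-like factors that sense nutrients, 0 of 3 genes were bound under DMSO in OVCAR3 (26.7% of all genes) or Kuramochi (24.7%). Under INX-315, 1 was bound in OVCAR3 (55.3% of all genes) and 2 in Kuramochi (53.0%). *MLXIP*, which encodes the glucose sensor MondoA, was gained in both lines. Gains covered 16.1% of all genes in OVCAR3 and 13.9% in Kuramochi. Its fold enrichments were 5.22 and 11.5 in OVCAR3 and 6.46 and 9.11 in Kuramochi. Of 12 genes for PRC1.6, the Polycomb complex of MGA, 6 were bound under DMSO in OVCAR3 (26.7% of all genes) and 7 in Kuramochi (24.7%). Under INX-315 all 12 were bound in both lines, where the share of all genes was also higher, at 55.3% and 53.0%. *RYBP*, a core subunit, was gained in both lines at 5.87 to 14.0. *MGA* itself was bound in no group.

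Of 19 genes for MYC cofactors and turnover, 14 were bound under DMSO in OVCAR3 (26.7% of all genes) and 12 in Kuramochi (24.7%). Under INX-315, 17 were bound in OVCAR3 (55.3% of all genes) and 17 in Kuramochi (53.0%). *ACTL6A*, a subunit of chromatin remodelling complexes, had fold enrichments of 18.0 to 30.1 under DMSO and 54.3 to 117 under INX-315. *SIN3A*, a SIN3 corepressor gene, measured 15.8 to 34.8 under DMSO and 31.8 to 81.9 under INX-315. In the same list, *SIN3B* had no promoter peak in any Rb library. Of 22 well-known MYC targets, 14 were bound in OVCAR3 (26.7% of all genes) and 13 in Kuramochi (24.7%) with DMSO. With INX-315 these counts were 19 (55.3% of all genes) and 20 (53.0%). *APEX1*, a DNA repair endonuclease gene, was at 10.5 to 19.1 under DMSO and 27.6 to 49.9 under INX-315. *PPAT* and *PAICS*, 2 purine synthesis genes that share a promoter, had the same peaks, at 11.1 to 23.1 under DMSO and 21.0 to 39.8 under INX-315.

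Of 8 E2F genes, 6 were bound under DMSO in OVCAR3 (26.7% of all genes) and 5 in Kuramochi (24.7%). Under INX-315, 7 were bound in OVCAR3 (55.3% of all genes) and 7 in Kuramochi (53.0%). In all 8 libraries, 5 E2F genes had a peak (18.8% of all genes). *E2F5*, which encodes a repressive E2F, was gained in both lines, where gains covered 16.1% (OVCAR3) and 13.9% (Kuramochi) of all genes. Its INX-315 fold enrichments were 10.1 and 5.20 in Kuramochi. They were 4.26 and 3.81 in OVCAR3, near the 5th percentiles of all peaks in those libraries (4.03 and 3.83). Of 11 AP-1 genes, 6 were bound in OVCAR3 (26.7% of all genes) and 4 in Kuramochi (24.7%) with DMSO. With INX-315 these were 7 (55.3% of all genes) and 8 (53.0%), and 3 genes had no promoter peak in any library. *JUNB* was at 7.76 to 15.5 under DMSO and 9.79 to 33.2 under INX-315. *FOSL2* was at 5.54 to 10.4 under DMSO and 12.3 to 29.9 under INX-315, and *FOS* at 5.12 to 11.8 and 6.46 to 32.3.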

How the data were processed

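Per the labels, Rb was profiled by CUT&RUN in 8 libraries, with 1 IgG2a library per line. The authors aligned reads to hg38 with Bowtie2 (version 2.3.4.1) and called peaks in each library with MACS2 (version 2.2.7.1) against the IgG2a library of the line and kept those with a q-value up to 0.05. The deposited lists hold the authors' fold enrichment, a linear ratio, with a −log10 p-value. They also hold a −log10 q-value. They hold no read totals.

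From each pair of fold enrichment and p-value, the whole number of summit fragments and the local background were recovered, with a relative tolerance of 3e-05. This succeeded for at least 98.57% of peaks in each Rb library. This was not attempted where −log10 p reached 290. The lowest recovered background in a library was taken as its mean coverage. Of 3762 genes with a peak in all 8 libraries, 273 lacked a recovered height in some library and were left out of the fit. Promoters came from 252835 transcript starts of GENCODE release 44, and an overlap of 1 bp counted. On all 23 main chromosomes peaks ended within the reference sequence.

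Log2 heights were tested with limma (version 3.58.1, R 4.3.3), with moderated variances and Benjamini-Hochberg adjustment over all genes tested, at a threshold of 0.05. The test was first run on simulated heights with known changes in a subset of genes. That simulation held no shift of whole libraries and does not bear on one. Bound and gained counts, and calls with all libraries, stand beside the share of all genes. Replicates were biological replicates of 1 experiment. The p-values rest on a spread between these libraries that limma shared largely over genes of similar height. They therefore do not measure the replicate spread of a single gene. The network and the other gene lists were chosen with earlier results of these data known. Every network gene is described, with up to 3 genes of each other list, those with the highest mean fold enrichment over the INX-315 libraries among genes gained in both lines or, where there were none, among bound genes. The 3 genes most like *MYC* are also named, as is *SIN3B*, a listed gene without a peak. A gene that this rule names is not reported here. The authors' count-based comparison of reads was not used here.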

Additional observations from a re-analysis of the deposited data

How the results depend on the processing

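Bound counts did not change under the other promoter window, the other transcript set, the stricter q-value limit or a summit required inside the promoter. With lists of equal length, 4 genes were bound in the Kuramochi INX-315 group instead of 9, and gains were 0 in OVCAR3 and 0 in Kuramochi instead of 1 each. With starts of protein-coding transcripts alone, 2 genes were gained in Kuramochi. Leaving out 1 library gave 1 to 2 gains in OVCAR3 and 1 to 3 in Kuramochi, and bound counts of 6 to 9 for Kuramochi DMSO. Centring each library on its median left 1 network gene higher and 3 lower in the mean of both lines, 0 higher in OVCAR3 and 0 in Kuramochi, and 200 genes higher and 366 lower among all genes. It turned the differences of *MYC* (−0.88), *MYCN* (−1.07), *MXD3* (−0.70) and *MXI1* (−0.20) negative, by its own construction. With the caller's fold enrichment, 2 genes were called higher in Kuramochi. With fragments over local background, an alternative chosen after seeing the data, 6 genes were called higher in the mean of both lines. Without 1 library, 3 to 6 genes were called in OVCAR3 and 0 to 5 in Kuramochi. A replicate block called 6 genes in the mean of both lines, 6 in OVCAR3 and 5 in Kuramochi. Over genes, the deviations of same-numbered replicates were not correlated (−0.042 in OVCAR3 and −0.011 in Kuramochi). A shift of a whole library leaves this correlation unchanged, so it cannot show whether the numbers pair the samples. The block lowered the SE of *MYC* in the mean of both lines from 0.26 to 0.15. Leaving out genes with a mean fold enrichment under 4 removed no gene. The height fit was not run on lists of equal length. Summits rest on as few as 3 fragments at weak network peaks, and on as few as 6 at the strongest peak of a gene in a library, and an absent peak there does not show that Rb was absent.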
